A study of Mus musculus with 4 samples.

Results

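Expression of 10 genes of fibroblast growth factor (FGF) signalling was followed in day 6 mouse retinal organoids. The set was chosen by gene symbol, with earlier results of these data known. It holds 2 ligands (Fgf8, Fgf15), 3 receptors (Fgfr1, Fgfr2, Fgfr3), 4 feedback inhibitors (Spry1, Spry2, Spry4, Dusp6) and the transcription factor gene Etv5. Each symbol matched 1 of the 55426 rows of the deposited table. With doxycycline (Dox) Fgf15, Fgf8, Spry2 and Etv5 rose, Fgfr2 fell, and Fgfr1, Fgfr3, Spry1 and Dusp6 did not pass the test. Spry4 was too low to be tested.

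Retinal organoids are stem cell aggregates guided towards retinal progenitors. All 4 libraries came from one cell line, labelled an Rx:GFP line with a knockout of Mettl3 and a Dox-inducible, HA-tagged METTL3. METTL3 is the enzyme that writes N6-methyladenosine (m6A) on RNA. The 2 untreated samples (titles EV-1 and EV-2) received no Dox and the 2 Dox samples (EV+Dox-1 and EV+Dox-2) received 2 µg/ml for 6 days, and both groups were differentiated in the same GMEM-based medium with KSR and the compound AGN. The labels do not explain EV, do not say whether the line is a single clone, and give one batch date for the 4 libraries, while the protocol text describes independent rounds of library preparation for duplicates. No label says that duplicates came from separate cultures, so p-values measure only the spread between these samples, which may be technical. The libraries are bulk RNA, in which fewer cells of a type and less RNA per cell cannot be told apart.

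FGFs are secreted proteins that bind receptor tyrosine kinases with heparan sulphate as a cofactor. The receptors signal through RAS and the kinase ERK, and ERK activity switches on genes that dampen the same pathway, among them the Sprouty genes and the ERK phosphatase gene Dusp6, as well as the ETS factor gene Etv5. In the early eye FGFs are known for promoting neural retina over pigment epithelium, and Fgf8 is also known as a signal of the anterior neural ridge and of the midbrain-hindbrain boundary.

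METTL3 methylates adenosines in short sequence contexts of which GGACT (with U for T in the RNA) is the best known, so the word was searched in the sense strand of the longest annotated protein-coding transcript of each gene (GENCODE M21, GRCm38). The occurrence nearest to the stop codon, around which m6A is known to be dense, is shown for the 5 genes that passed the test, in capitals and with 10 bases on either side, 5′ to 3′.
Fgf15: gggaggaaatGGACTgtttaggcta
Fgf8: ggcagccagaGGACTtgggccccgg
Spry2: attgactatgGGACTtgtgtgtgct
Etv5: cgttgatcatGGACTactaaaatgc
Fgfr2: tgccccagttGGACTcaaggcagac

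Distances run from the first base of the word to the last base of the stop codon. The Fgf8 window (chr19:45737001-45737025, minus strand) is coding sequence 25 bases before the end of the reading frame. The Fgf15 window (chr7:144899680-144899704, plus strand) and the Spry2 window (chr14:105893090-105893114, minus strand) are also coding, 258 and 301 bases before it. The windows of Etv5 (chr16:22383117-22383141, minus strand) and Fgfr2 (chr7:130163666-130163690, minus strand) lie in the 3′ UTR, 339 and 279 bases after it. Spry2 held 7 occurrences, or 3.35 per kb, at the 98.8th percentile of the tested genes with a coding transcript. Dusp6, which did not pass the test, held 8 (2.86 per kb, 97.4th percentile). Fgf15 held 2 (1.1 per kb, 53.8th percentile) and Fgfr2 held 5 (1.16 per kb, 57.5th percentile). The lowest density was that of Spry4, with 2 occurrences and 0.42 per kb (13.9th percentile). Over 11629 tested genes the median was 1.05 per kb and 92.3% held the word at least once. The median was 1.05 per kb in genes called higher and 1.1 per kb in genes called lower. The word is not a measured m6A site, and methylation was not analysed here.

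The fitted depth was 31800000 to 34600000 fragments per library. Across the 13931 tested genes Pearson's r of log2(FPKM + 1) was 0.987 to 0.990 between replicates and 0.961 to 0.966 between groups (genes are not independent replicates). FPKM counts fragments relative to transcript length and library depth, so levels can be set side by side between genes. The targeted gene, Mettl3, stood at 40.33 and 37.98 FPKM untreated and at 45.2 and 46.37 FPKM with Dox (log2 fold change 0.22, limma adjusted p = 0.122). This gene-level value does not separate the inducible copy from the knocked-out locus. The Rax (Rx) gene, which gives the reporter its name, stood at 1.12 and 0.82 FPKM untreated and at 201.14 and 227.98 FPKM with Dox, and eGFP at 0.26 and 0.42 against 333.52 and 361.13 FPKM.

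Markers of other cell types moved along with the FGF genes, and their part in the FGF results was not tested. Of 6 retinal progenitor markers 5 rose, and the list summed to 151 to 163 FPKM untreated and 790 to 918 FPKM with Dox. Six6, a defining member of the list, was at 0.01 FPKM in both untreated libraries. Of 4 pigment epithelium markers 3 were tested and rose, with sums of 2.22 to 2.31 and 60.6 to 61.2 FPKM, while Tyr did not exceed 0.11 FPKM in any library. The 5 tested of 6 genes in the neuron list fell (sums of 157 to 162 and 85.3 to 89.9 FPKM). Tubb3 made up most of these sums (118.53 and 116.78 FPKM untreated, 75.76 and 79.83 FPKM with Dox). The list also holds Neurog2 and Dll1, which are not restricted to neurons. The 4 tested of 5 forebrain dorsal midline markers fell too (166 and 9.74 to 12.0 FPKM), as did 3 of 4 neural crest markers (23.8 to 24.4 and 5.04 to 6.1 FPKM). Of 3 optic stalk markers 2 were tested and both rose. Of 7 midbrain-hindbrain boundary markers only Wnt1 was tested, and it fell. The defining boundary genes En1, En2, Pax5, Pax8 and Gbx2 did not exceed 0.16 FPKM in any library. Among markers of the anterior neural ridge and telencephalon Emx2 fell, and Sp8 and Dlx2 did not pass. None of the 4 pluripotent-cell or 5 surface ectoderm and lens markers passed (in limma 1 and 0 of them, respectively, had an unadjusted p below 0.05). Of 5 mesenchyme and endothelium markers 3 were tested and 1, Col1a2, rose.

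**Figure D1:**
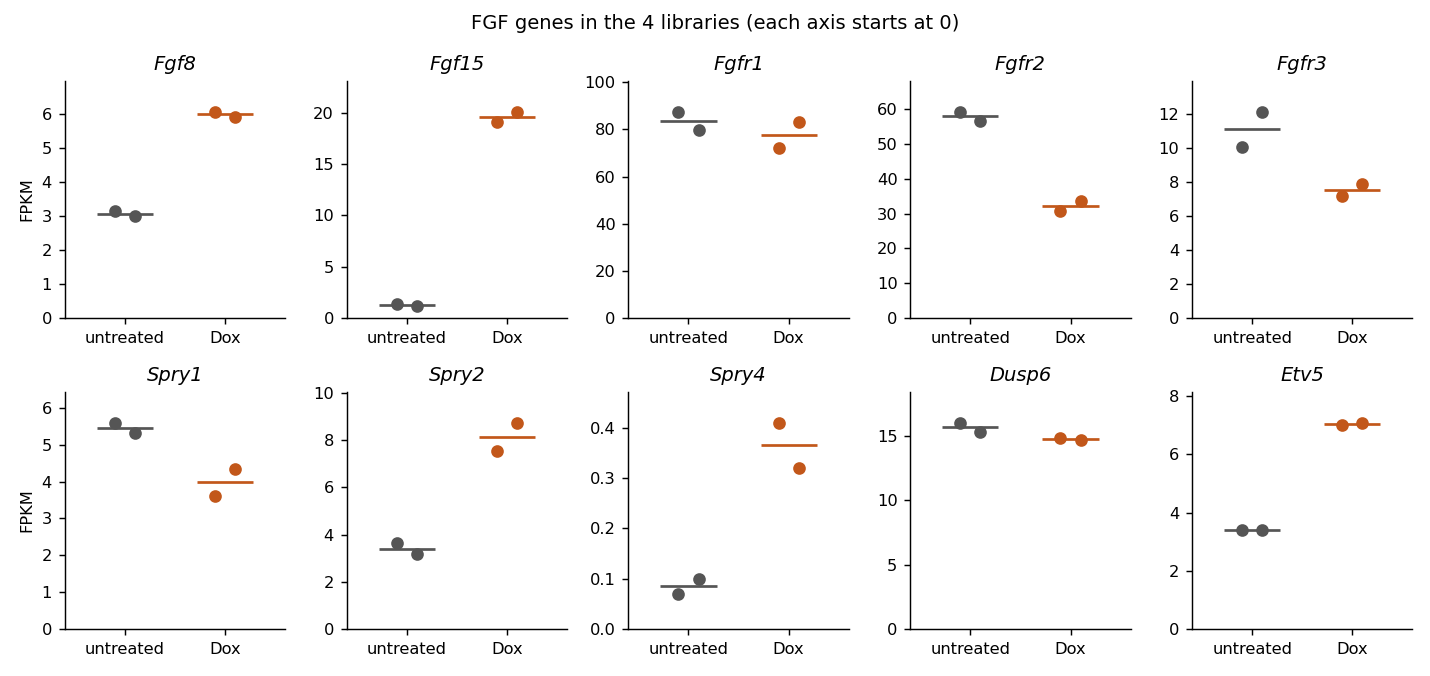
FPKM of the 10 FGF genes in each library (points) with the mean of the 2 libraries of a group (line), on axes that start at 0. Fgf15 climbs from under 2 to about 20 FPKM, Fgfr2 drops from 59.11 and 56.56 to 30.63 and 33.55 FPKM, and the groups overlap in Fgfr1.

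The ligand Fgf15, a mouse FGF known in retinal progenitors and in the embryonic forebrain, changed most. Without Dox it read 1.4 and 1.18 FPKM, and with Dox 19.13 and 20.06 FPKM. Both Dox libraries lay far above both untreated ones, a 15.2-fold difference of means (1.29 ± 0.156 and 19.6 ± 0.658 FPKM, SD, n = 2 each). On the log2(FPKM + 1) scale the fold change was 3.17 (SE 0.105, 95% interval 2.91 to 3.43, limma adjusted p = 0.000103). That scale understates the change of low genes. Fgf15 (ENSMUSG00000031073) lies at chr7:144896531-144900953 (GRCm38, plus strand). Its exons overlap those of 2 predicted genes on the other strand, Gm26793 and Gm39119. These were at 0.52 FPKM or less in every library, far below Fgf15 itself.

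Fgf15 has FGF neighbours on the same chromosome. Fgf4 (chr7:144847367-144865243) read 0.72 and 0.53 FPKM untreated and 0.97 and 0.7 FPKM with Dox. Fgf3 (chr7:144838083-144844436) read 0.09 and 0.06 FPKM in both groups. Both fell short of the minimum for testing, and neither showed the step seen in Fgf15. On the other side, the cyclin D1 gene Ccnd1 (chr7:144929931-144939925) read 25.94 and 22.2 FPKM untreated and 30.07 and 30.41 FPKM with Dox (log2 fold change 0.32, limma adjusted p = 0.106).

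Fgf8, the second ligand, rose less. It read 3.16 and 2.99 FPKM untreated and 6.06 and 5.92 FPKM with Dox, a 1.95-fold difference with no overlap between the groups. The log2 fold change was 0.78 (SE 0.102, 95% interval 0.52 to 1.03, limma adjusted p = 0.00904). The call did not hold when genes below the minimum were included (adjusted p = 0.0578) or when any one library was left out (adjusted p from 0.0566 to 0.0699), although the fold change stayed between 0.75 and 0.81 in these fits. Fgf8 (ENSMUSG00000025219) lies at chr19:45736798-45742915 (minus strand), and its exons overlap no other annotated gene. Its 6 annotated transcripts, several of which encode different splice forms of the protein, are summed in the gene-level value.

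Fgf8 and Fgf15 changed places in the ligand pool. The table holds 18 secreted FGF ligand genes, of which 15 stayed under 1 FPKM in every library. Summed over the 18 genes, ligand FPKM was 6.89 and 6.5 untreated and 30.59 and 30.86 with Dox. Fgf15 made up 20.3% and 18.2% of that sum untreated and 62.5% and 65.0% with Dox. The share of Fgf8 was 45.9% and 46.0% untreated and 19.8% and 19.2% with Dox, although its own level had risen. The only other secreted ligand tested was Fgf9, known in the distal optic vesicle as a signal for neural retina. Fgf9 was listed at 0.11 and 0.06 FPKM untreated and at 2.91 and 2.36 FPKM with Dox (log2 fold change 1.74, SE 0.148, limma adjusted p = 0.00191). It passed the minimum for testing only through the Dox libraries.

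**Figure D2:**
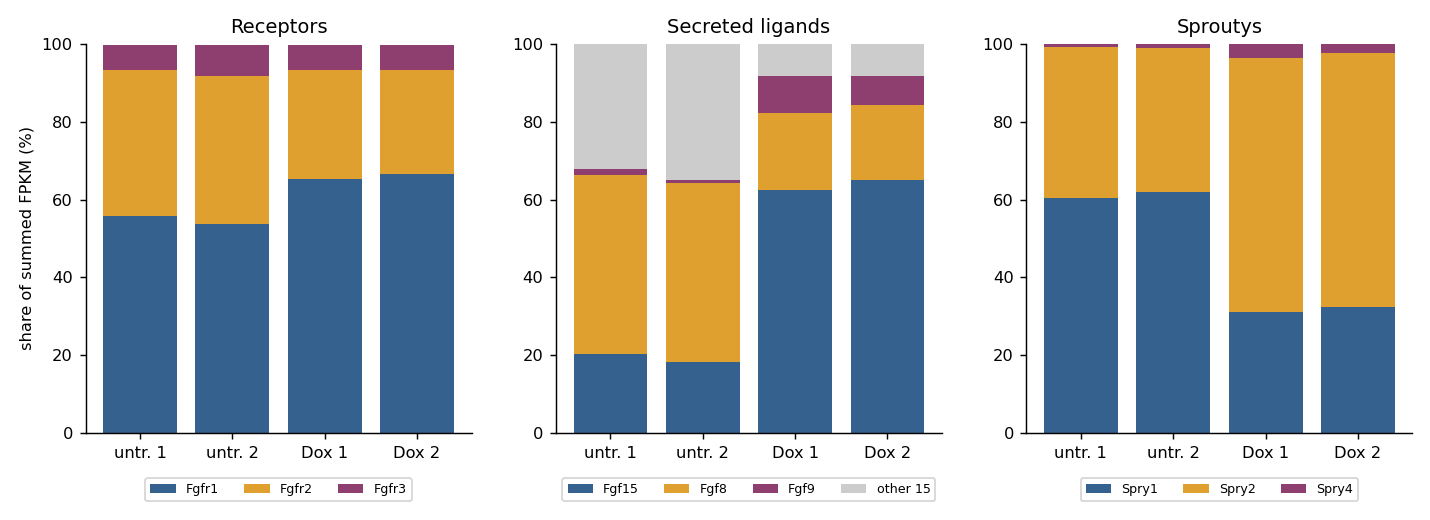
Share of summed FPKM held by each gene, in percent, in the 4 libraries: receptors Fgfr1 to Fgfr4 (Fgfr4, at most 0.25%, is not drawn), 18 secreted FGF ligands, and Spry1, Spry2 and Spry4. With Dox the Fgf15 part grows from 20.3% and 18.2% to 62.5% and 65.0%, the Fgfr2 part shrinks, and Spry2 replaces Spry1 as the largest of the Sprouty parts.

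Fgfr1 and Fgfr2 were the most abundant of the 10 genes, and none of the 3 receptor genes rose. Fgfr1, the main receptor transcript here, read 87.39 and 79.83 FPKM untreated and 71.95 and 83.34 FPKM with Dox. The groups overlapped, and the log2 fold change was -0.11 (SE 0.0954, 95% interval -0.35 to 0.13, limma adjusted p = 0.557). Fgfr1 (ENSMUSG00000031565) lies at chr8:25513654-25575718 (plus strand).

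Fgfr2 was the one member that fell past the threshold. It read 59.11 and 56.56 FPKM untreated and 30.63 and 33.55 FPKM with Dox, with both Dox libraries well below both untreated ones. The means were 57.8 ± 1.8 and 32.1 ± 2.06 FPKM (SD, n = 2 each), 1.8-fold apart. The log2 fold change was -0.83 (SE 0.0754, 95% interval -1.02 to -0.64, limma adjusted p = 0.00239), and the call held in every alternative fit, including those without one library (adjusted p from 0.0201 to 0.0284). Fgfr2 (ENSMUSG00000030849, chr7:130162451-133123350, minus strand) shares annotated exon sequence with Ctbp2 on the same strand. Ctbp2 did not pass the test, with 61.98 and 59.67 FPKM untreated and 55.51 and 60.95 FPKM with Dox. The epithelial and mesenchymal splice forms of the receptor are not separated in the gene-level value.

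Fgfr3 read 10.08 and 12.11 FPKM untreated and 7.19 and 7.86 FPKM with Dox. The groups did not overlap, but the log2 fold change of -0.5 (SE 0.117, 95% interval -0.79 to -0.21) missed the threshold (limma adjusted p = 0.0612), and it passed with robust variance estimation (adjusted p = 0.0442). Fgfr3 (ENSMUSG00000054252) lies at chr5:33721674-33737068 (plus strand). Fgfr4, a receptor outside the set of 10, was at 0.18 and 0.26 FPKM untreated and at 0.2 and 0.31 FPKM with Dox, below the minimum for testing. The 4 receptor genes summed to 156.8 and 148.8 FPKM untreated and 110.0 and 125.1 FPKM with Dox. Fgfr1 held 55.7% and 53.7% of the sum untreated and 65.4% and 66.6% with Dox, and Fgfr2 held 37.7% and 38.0% against 27.9% and 26.8%. The log2 ratio of Fgfr2 to Fgfr1 was -0.56 and -0.5 untreated and -1.23 and -1.31 with Dox. Fgfr1 thus held a larger part of the receptor transcripts in both Dox libraries, with no increase in its own FPKM.

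The 3 Sprouty genes, whose products block RAS activation downstream of the receptors, gave different results. Spry2 read 3.62 and 3.16 FPKM untreated and 7.54 and 8.74 FPKM with Dox, a 2.4-fold difference of means with no overlap. Its log2 fold change was 1.06 (SE 0.121, 95% interval 0.76 to 1.36, limma adjusted p = 0.0054). The adjusted p was 0.0548 with all low genes included and 0.0559 without Dox replicate 2, where the fold change was 0.96. Spry2 (ENSMUSG00000022114, chr14:105891947-105896819, minus strand) has a single annotated transcript, and its FPKM values correspond to about 215 and 202 fragments untreated and 443 and 531 with Dox.

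Spry1 read 5.6 and 5.31 FPKM untreated and 3.61 and 4.35 FPKM with Dox. Both Dox libraries lay below both untreated ones, but the log2 fold change of -0.38 (SE 0.12, 95% interval -0.68 to -0.08) did not pass (limma adjusted p = 0.13). Spry1 (ENSMUSG00000037211) lies at chr3:37639947-37644598 (plus strand).

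Spry4 was listed at 0.07 and 0.1 FPKM untreated and at 0.41 and 0.32 FPKM with Dox, under the minimum for testing. These values correspond to about 10 and 16 fragments untreated and 59 and 48 with Dox. The Dox libraries were higher, and with all low genes included in the fit the difference did not pass (log2 fold change 0.33 on the log2(FPKM + 1) scale, limma adjusted p = 0.0851). Of the summed FPKM of these 3 genes Spry1 held 60.3% and 62.0% untreated and 31.2% and 32.4% with Dox. Spry2 held 39.0% and 36.9% untreated and 65.2% in both Dox libraries. The Sprouty sum itself moved from 9.29 and 8.57 to 11.56 and 13.41 FPKM.

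Dusp6, which encodes an ERK-specific phosphatase and is often read as a gauge of ERK activity, did not pass the test. It read 16.03 and 15.32 FPKM untreated and 14.83 and 14.7 FPKM with Dox. The groups did not overlap, yet the step between them was small, with a log2 fold change of -0.08 (SE 0.0767, 95% interval -0.27 to 0.11, limma adjusted p = 0.586). Dusp6 (ENSMUSG00000019960) lies at chr10:99263231-99267489 (plus strand). Etv5, which encodes an ETS-family transcription factor induced by FGF, rose. It read 3.4 and 3.39 FPKM untreated and 7.0 and 7.09 FPKM with Dox, a 2.08-fold difference with close agreement between replicates. The log2 fold change was 0.87 (SE 0.0976, 95% interval 0.63 to 1.12, limma adjusted p = 0.00511), and the adjusted p was 0.0528 without Dox replicate 2. Etv5 (ENSMUSG00000013089) lies at chr16:22381309-22439719 (minus strand).

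**Figure D3:**
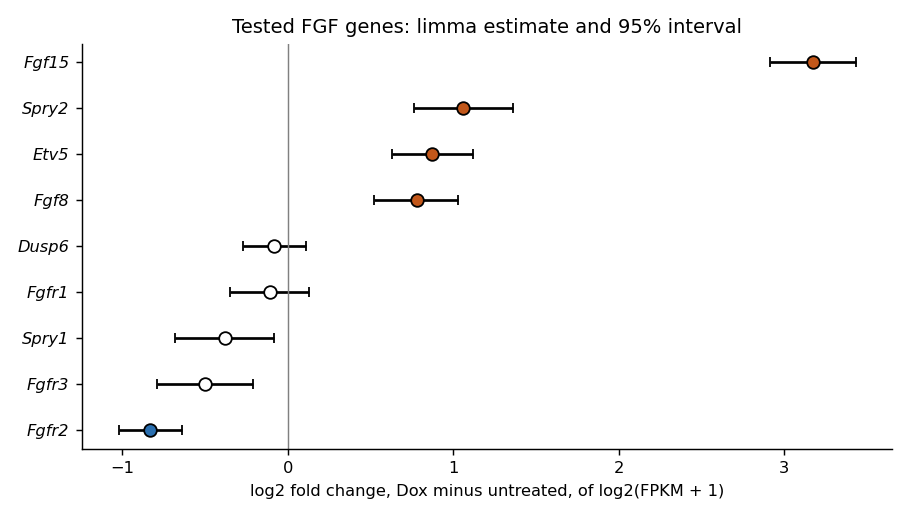
Log2 fold change (Dox minus untreated, of log2(FPKM + 1)) of the 9 tested FGF genes with its 95% interval from limma; filled points passed an adjusted p of 0.05. Fgf15 stands apart at 3.17, Spry2, Etv5 and Fgf8 lie between 0.78 and 1.06, and Fgfr2 at -0.83 is the one filled point below 0.

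Spry2 and Etv5 are the feedback and target genes that rose, so their promoters are shown (RefSeq, GRCm38.p6, 300 bases from 250 before to 50 after the annotated start, 5′ to 3′ on the minus strand that both genes use). Capitals mark the word CCGGAA, and likewise the word CAGGAA, on either strand, each holding the core bound by ETS factors. In Etv5 the match is on the opposite strand and so appears as its reverse complement. The Spry2 sequence is chr14:105896770-105897069 and that of Etv5 is chr16:22438319-22438618, the downstream one of its 2 annotated starts.
Spry2: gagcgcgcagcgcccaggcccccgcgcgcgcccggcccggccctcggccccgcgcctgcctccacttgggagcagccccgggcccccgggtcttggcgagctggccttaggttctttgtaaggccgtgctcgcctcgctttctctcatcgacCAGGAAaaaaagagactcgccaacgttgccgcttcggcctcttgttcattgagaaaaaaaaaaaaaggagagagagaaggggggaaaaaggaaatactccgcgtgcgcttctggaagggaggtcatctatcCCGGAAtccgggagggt
Etv5: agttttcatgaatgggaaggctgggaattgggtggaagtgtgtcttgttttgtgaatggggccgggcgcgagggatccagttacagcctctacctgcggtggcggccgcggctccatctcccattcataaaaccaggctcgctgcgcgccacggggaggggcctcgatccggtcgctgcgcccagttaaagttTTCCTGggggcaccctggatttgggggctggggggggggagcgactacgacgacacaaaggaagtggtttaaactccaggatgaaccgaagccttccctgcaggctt

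The Spry2 promoter held CAGGAA at position -98 and CCGGAA at position 33 from the start, and the downstream Etv5 promoter held 1 match at position -57. The upstream Etv5 promoter (chr16:22439521-22439820) held 0 matches. Of the 10 genes 6 had a promoter in the table, with 8 promoters in all, and 3 of the 8 held either word; the third was that of Fgfr2. Among all 32851 promoters of that length 41.4% held either word, 14.9% CCGGAA and 30.6% CAGGAA. A promoter can hold both words, as that of Spry2 does. The 3 of 8 found here is a share near the background of 41.4%. A match describes the letters and is not a binding site.

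Of the 9 tested members 5 passed the threshold, against a background of 9.31% of all tested genes. The 4 higher members compare with 4.44% of tested genes called higher, and the 1 lower member with 4.87% called lower. Each of the 9 had at least 1 FPKM in every library, so none passed the minimum through one group alone. The groups did not overlap in 8 of the 9, against 53.4% of all tested genes. The median log2 fold change of the 9 was -0.08, against -0.0042 over all tested genes. Members were chosen with earlier results of these data known, so these counts describe them and are not independent evidence. The count of higher members was 2 with all low genes included (Etv5 and Fgf15 stayed called) and 1 without Dox replicate 2 (Fgf15). No two-sided exact permutation test of 2 against 2 samples can give a p below 0.333, so these calls rest on the variance that limma shares between genes.

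The order of the 10 genes by level changed mainly through Fgf15. Untreated, the order from high to low was Fgfr1, Fgfr2, Dusp6, Fgfr3, Spry1, Etv5, Spry2, Fgf8, Fgf15 and Spry4. Neighbours in it were separate except Etv5 with Spry2 and Spry2 with Fgf8. With Dox the order was Fgfr1, Fgfr2, Fgf15, Dusp6, Spry2, Fgfr3, Etv5, Fgf8, Spry1 and Spry4, and only Spry2 and Fgfr3 overlapped. Fgf15 thus moved from the ninth to the third place, and Spry1 from the fifth to the ninth.

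The relay from receptor to ERK was then examined through a list of 20 adaptor, RAS, RAF, MEK and ERK genes. None of the 20 passed the threshold in limma, and an unadjusted p below 0.05 was reached by 1 gene upwards and 0 downwards. Their log2 fold changes ran from -0.13 (Hras) to 0.31 (Shc1), with a median of 0.06.

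The other feedback inhibitors gave 4 higher and 0 lower genes among 11 tested of 13. The largest change was that of Dusp9, an ERK phosphatase gene related to Dusp6. Dusp9 read 2.04 and 1.84 FPKM untreated and 34.12 and 38.54 FPKM with Dox (log2 fold change 3.66, SE 0.102, limma adjusted p = 6.96e-05), which placed it above Dusp6 with Dox. Spred1 and Spred3, which encode Sprouty-related inhibitors of RAS signalling, rose from 5.77 and 5.86 to 12.35 and 12.75 FPKM (log2 fold change 0.99) and from 4.53 and 3.68 to 8.25 FPKM in both libraries (0.86). Dusp5, a nuclear ERK phosphatase gene, rose from 7.06 and 6.57 to 10.89 and 10.79 FPKM (0.6). Both later calls were lost with all low genes included (adjusted p = 0.0731 and 0.0567). Without one library Dusp5 lost its call in all 4 fits (0.0772 to 0.109) and Spred3 in those without untreated replicate 2 (0.0588), Dox replicate 1 (0.0861) or Dox replicate 2 (0.0927). Dusp4, another nuclear ERK phosphatase gene, read 9.27 and 8.32 FPKM against 8.39 and 9.81 FPKM and did not pass.

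The list of other ERK target genes holds 12 genes, Shisa2 and the untested Shisa3 among them. Of the 12 genes 9 were tested, and 5, with Shisa2 counted, were higher and 0 lower. Phlda1, an ERK-responsive gene, rose from 6.45 and 5.16 to 61.54 and 70.25 FPKM (log2 fold change 3.3). Myc, a growth-regulating transcription factor gene, rose from 2.86 and 2.77 to 14.45 and 18.35 FPKM (2.18). Etv1, an ETS-family relative of Etv5, rose from 1.43 and 0.89 to 2.65 and 2.93 FPKM (0.82), a call lost with all low genes included (adjusted p = 0.148), with a pseudocount of 0.1 (0.0509) and without untreated replicate 2 (0.128), Dox replicate 1 (0.137) or Dox replicate 2 (0.187). Ier2, an immediate early gene, was the smallest of the 5, at 34.81 and 34.14 FPKM untreated and 47.24 and 48.42 FPKM with Dox (0.46). The top change in this list, Shisa2, is not an ERK target in the sense of the list's name: its product holds immature FGF and Wnt receptors back in the endoplasmic reticulum. Shisa2 rose from 7.06 and 5.79 to 191.62 and 227.17 FPKM (4.82). The immediate early genes Fos and Egr1 differed more between the untreated replicates (1.49 and 6.12, 2.5 and 6.25 FPKM) than between the Dox replicates (7.2 and 5.92, 5.83 and 5.62 FPKM) and did not pass.

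**Figure D4:**
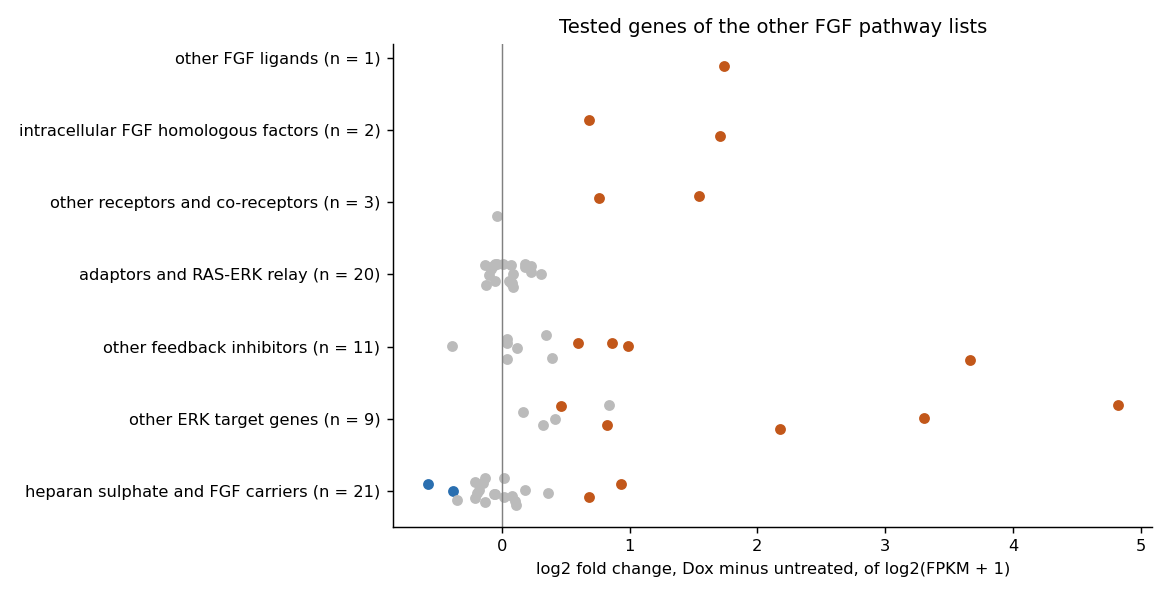
Log2 fold change (Dox minus untreated, of log2(FPKM + 1)) of every tested gene in 7 further lists of the FGF pathway; orange points were called higher, blue points lower, grey points not called. The 20 relay genes cluster around 0, while called genes of the feedback list reach 3.66 (Dusp9) and those of the ERK target list 3.3 (Phlda1), apart from the receptor-retention gene Shisa2 at 4.82.

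Outside the cell, Flrt3, whose product is a membrane protein that binds FGF receptors, rose from 22.85 and 23.21 to 67.36 and 70.63 FPKM (log2 fold change 1.54, limma adjusted p = 0.000184). Its relative Flrt2 rose from 4.76 and 5.62 to 9.05 and 9.9 FPKM (0.76), a call lost with all low genes included (adjusted p = 0.0808) and without untreated replicate 1, Dox replicate 1 or Dox replicate 2 (0.0776 to 0.114). The decoy-like receptor gene Fgfrl1 did not pass, at 27.28 and 26.9 FPKM untreated and 24.57 and 28.21 FPKM with Dox. In all 2 of the 3 tested of 7 other receptor and co-receptor genes were higher and 0 lower. Among 23 heparan sulphate and carrier genes 21 were tested, with 2 higher, 2 lower and a median log2 fold change of -0.06. Fgfbp3, which encodes a carrier that releases FGFs from the matrix, rose from 8.47 and 8.81 to 17.95 and 16.7 FPKM (0.93), and the glypican gene Gpc4 rose from 17.84 and 16.91 to 27.6 and 29.46 FPKM (0.68, adjusted p = 0.0552 without Dox replicate 2). Sulf2, which encodes a sulphatase that trims heparan sulphate, fell from 81.83 and 72.07 to 47.48 and 54.69 FPKM (-0.58), a call lost with all low genes included (adjusted p = 0.119) and without any one library (0.0626 to 0.135). Ext1, a chain-elongating enzyme gene, fell from 27.4 and 25.36 to 19.63 and 20.57 FPKM (-0.38), a call that held in 6 of 14 alternative fits only and was lost without any one library (adjusted p from 0.142 to 0.244) and with the replicate block (0.102).

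Intracellular FGF homologous factors resemble FGFs in sequence, are not secreted and bind voltage-gated sodium channels. Of the 4 genes 2 were tested and both were higher. Fgf13 rose from 7.47 and 7.24 to 23.97 and 28.96 FPKM (log2 fold change 1.71, limma adjusted p = 0.000727). Fgf11 rose from 0.85 and 1.17 to 2.09 and 2.35 FPKM (0.68, adjusted p = 0.046), a call lost with all low genes included (adjusted p = 0.135), with a pseudocount of 0.1 (0.0577) and without any one library (0.0762 to 0.188).

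Over the 7 lists together 16 of 67 tested genes were higher and 2 lower, and the median log2 fold change of the 67 was 0.09. The background is 4.44% of all tested genes higher and 4.87% lower, with a median of -0.0042, and it applies to the counts of each list too. These lists were written with earlier results of the same libraries known, so the counts describe the pathway and are not independent evidence of its direction.

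The genes most like Fgf15 and Fgfr2, the members with the highest and lowest fold change, were found by the Euclidean distance of log2(FPKM + 1) over the 4 libraries. For Fgf15 they were Pde2a (distance 0.14), Dkk3 (0.271) and Kcnj12 (0.583). Pde2a, a cyclic nucleotide phosphodiesterase gene, read 1.41 and 1.11 FPKM untreated and 17.96 and 21.57 FPKM with Dox. For Fgfr2 they were Kcnh2 (0.182), Nxn (0.218) and Plch1 (0.303). Kcnh2, a potassium channel gene, read 61.28 and 58.47 FPKM untreated and 34.34 and 34.83 FPKM with Dox. With 4 libraries in 2 groups, likeness is little more than a similar level in each group.

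**Figure D5:**
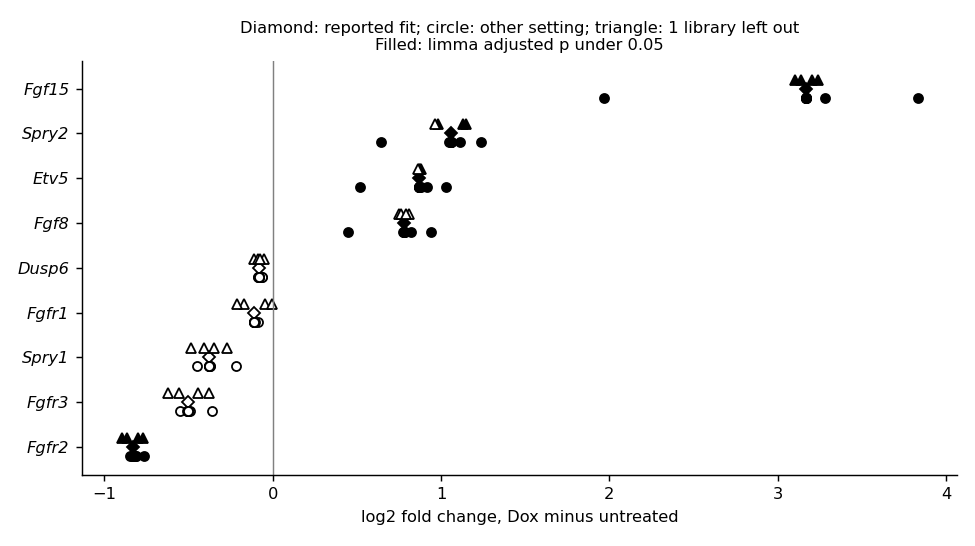
Log2 fold change of the 9 tested FGF genes under the reported fit (diamonds), other settings (circles) and with 1 library left out (triangles); filled symbols passed an adjusted p of 0.05 in limma. All symbols of a gene lie on one side of 0, and Fgf15 and Fgfr2 are filled throughout. The open circles of Fgf8 and Spry2 with low genes included have the fold change of the reported fit and lie hidden under filled ones. The filled circle of Fgfr3 under robust estimation likewise lies hidden under an open one.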

How the data were processed

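The series holds 4 poly(A)-selected, paired-end RNA-seq libraries of mouse retinal organoids. The authors deposited gene-level FPKM values, one column per library, rounded to 2 decimals. The submitters' processing notes name STAR, Cuffdiff and mm10, while versions, the annotation release and strand use are not given in the sources used here. Exons of 5 of the 10 genes overlap another gene (4 of the 5 across strands), so reads could be shared. Libraries were assigned by library name and title.

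Values were transformed to log2(FPKM + 1). Genes averaging 1 FPKM or more were tested on all 4 libraries with limma 3.58.1 in R 4.3.3 (lmFit, eBayes with intensity trend, two-sided, Benjamini-Hochberg over 13931 genes, threshold 0.05, no covariate). The fit was also run on simulated data with fewer changed genes than were called here, and no result above rests on that run. Depth was fitted from single-transcript genes whose low values move in steps of 1 fragment: 77.2% to 79.8% of these values came out within 0.1 of a whole fragment. Count models were not applied, since FPKM does not hold counts. Positions and transcripts came from GENCODE M21 by gene identifier, and the mm10 build equals its GRCm38.

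Named are the 10 members, up to 4 called genes per pathway list with the largest fold change, listed FGF ligands averaging 1 FPKM or more, the 3 genes nearest to the highest and the lowest member, and Mettl3, Rax and eGFP. Other genes are given as examples chosen after their values were seen, and a few listed genes are not reported here. Members and lists were chosen with earlier results of these data known. Alternatives were pseudocounts of 0.1 and 5, no filter, a minimum of 5 FPKM, TPM, median centring, quantile normalization, no trend, robust estimation, the replicate block and each library left out.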

Additional observations from a re-analysis of the deposited data

How the results depend on the processing

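The fold changes of the 9 tested members kept their sign in every fit run. Counts of calls over all genes (619 higher, 678 lower) were 336 and 409 without a filter, 408 and 413 when 5 FPKM was required (fewer genes tested), and 262 to 320 and 331 to 377 with one library left out (fewer samples, the lone library being assumed to vary like the other group). Among the members, 4 higher and 1 lower became 2 higher without a filter, 1 to 3 higher and 1 lower with one library left out, and 2 lower (Fgfr2 and Fgfr3) with robust estimation; the cause was not tested for the last. Under the replicate block 532 genes were higher and 602 lower, and the member counts stayed at 4 and 1. Equal numbers were not found to mark pairs: same-numbered libraries did not deviate from their group means together (correlation -0.0435). Among the tested members and the pathway and likeness genes named by the rule, Ext1 alone changed its call under the block (limma adjusted p = 0.102); other genes given as examples were not compared under it. Rescaling shifted the overall median log2 fold change by at most 0.021. The pseudocount moved the fold change of Fgf15 from 3.83 (0.1) to 1.97 (5), by construction. Spry4 and 15 secreted ligands averaged under the minimum of 1 FPKM and were left out of the main test, which could therefore call no difference in them.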
